A study of Mus musculus with 18 samples.

Results

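10 genes of the oxygenase branch of lipid metabolism were followed in mouse back skin after deletion of Rbpj or Notch1. They are the lipoxygenases Alox12, Alox12b, Alox12e, Alox15, Alox8, Aloxe3 and Alox5, the Alox5 partner protein Alox5ap, and the cyclooxygenases Ptgs1 and Ptgs2. They were taken by symbol, as 10 of the 21011 rows of the count table, and 9 of them passed the filter on low counts that kept 16517 genes. Alox15 did not pass.

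Lipoxygenases are iron enzymes that add oxygen to polyunsaturated fatty acids. In the outer living layers of the epidermis, Alox12b and then Aloxe3 oxidise the linoleate of acylceramides, a step needed for the lipid barrier of the skin, and inherited loss of either enzyme causes ichthyosis. Alox12, Alox12e and Alox15 make hydroxy acids from arachidonic acid, Alox5 with Alox5ap starts leukotriene synthesis, mostly in leukocytes, and Ptgs1 and Ptgs2 start prostaglandin synthesis. Notch receptors act through the DNA-binding protein Rbpj, and Notch signalling promotes the spinous fate of keratinocytes as they leave the basal layer.

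RNA was sequenced from 18 mice, 1 library per mouse. KR mice (n = 4) carried K14-CreERT, active in basal keratinocytes, with deletion of Rbpj. LR mice (n = 3) carried Lrig1-CreERT2, active in cells of the upper hair follicle, with deletion of Rbpj. KN1 mice (n = 4) had Notch1 deleted, and the labels name their driver K14-CreERT1. The labels' list of drivers holds only K14-CreERT and Lrig1-CreERT2, so whether the driver of KN1 mice differs from that of KR mice is not known. Each mutant had controls of its own cage batch (KR control, n = 2; LR control, n = 3; KN1 control, n = 2), and the alleles carried by the controls are not stated in the labels. All groups are mice given tamoxifen at 8 weeks of age, with skin taken 10 weeks later. The labels put the hair follicles in telogen, the resting state. The trypsinised epidermis was scraped off the dermis, so dermal cells were mostly left behind, but immune cells of the epidermis and cells of the hair follicle were not sorted away. In such bulk RNA, fewer cells of a type and less RNA per cell cannot be told apart. The labels do not say whether mice of a group came from separate litters, so each p-value reflects only how much these mice varied.

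Library totals were 8076316 to 21216169 counts, and the reads of KR control 4 and of KN1 control 1, the deepest 2, join 2 sequencing occasions of 1 mouse each. KR control 6, LR control 5 and KN1 control 7 carry a second name in the labels and are called second-named here. All 4 controls of the KR and KN1 cohorts are thus second-named or joined, and no mutant is, so in those cohorts library history and genotype cannot be told apart. Mitochondrial genes took 0.98 to 1.72% of counts in KR mice against 1.87 to 3.17% in their controls, 0.84 to 1.17% in LR mice against 0.89 to 2.26%, and 0.65 to 0.98% in KN1 mice against 1.11 to 1.23%. The part of this share in the results was not tested. Notch1 in KN1 mice was 81.9 to 156 CPM (counts per 1e6 counts of the library) against 172 to 251 in their controls, and it fell by 0.91 ± 0.19 (log2, standard error; edgeR quasi-likelihood test, adjusted p = 0.0251). Rbpj was 40.9 to 45.9 CPM in KR mice against 58.1 to 60.8, and 29.9 to 37.9 CPM in LR mice against 42.7 to 73.1, which did not overlap but missed the threshold (adjusted p = 0.135 and 0.0659). Rbpj was also lower in KN1 mice than in their controls (30.9 to 36.8 CPM against 42.6 to 44.2, adjusted p = 0.31). Cells not reached by Cre stay in the sample. Hair matrix and shaft markers summed to 184 to 996 CPM in 8 mice (LR control 2, KR control 6, KR 3, KR 4, KR 5, LR 2, KN1 2 and KN1 4) and to 17.7 to 58.3 CPM in the other 10, which goes against the telogen label for those 8. Sebocyte markers summed to 7996 and 7062 CPM in KR 3 and KR 5 and to 1727 to 3634 CPM in the other 16 mice. Their part in the results was not tested. Markers of spinous keratinocytes (Krt10 from 6147 to 20980 CPM) and of Langerhans cells, the dendritic cells of the epidermis (Cd207 from 10.0 to 37.2 CPM), were found in every library.

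Values are CPM on TMM-scaled library sizes. A gene is called changed where the Benjamini-Hochberg adjusted p of the edgeR quasi-likelihood test, over all 16517 genes, was under 0.05. The 3 mutants were each tested against their own controls, and the mean of the 3 differences was tested as well, giving every mutant the same weight. Per kilobase of exon, the genes covered a wide range in the 7 control mice. The median level was 503 CPM per kb for Alox12e, 61.2 for Ptgs1, 25.4 for Alox12b and 12.2 for Alox12. It was 5.42 for Alox5ap, 4.77 for Aloxe3, 3.69 for Alox5, 2.23 for Ptgs2, 0.616 for Alox8 and 0.046 for Alox15. From Alox12b down to Alox8, the control ranges of neighbours in this order overlapped. Alox12e, from 211 to 646 CPM per kb, stood above every other gene of the set in every control, and Ptgs1, from 56.9 to 70.4, above the remaining 8.

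Averaged over the 3 mutants, Alox12 and Ptgs1 fell and Alox12e rose, so 3 of the 9 genes were called where 21.7% of all genes were (11.1% lower, 10.6% higher). For Alox12e the mean joins log2 differences of opposite sign, 1.03 and 0.42 in KR and LR mice and −0.46 in KN1 mice. Against their own controls, 1 of 9 (Alox12e) was called in KR mice, with 1.6% of all genes called. None of 9 was called in LR mice (1.12% of all genes) or in KN1 mice (1.97%). At an unadjusted p under 0.05, 4 of the 9 genes passed in KR mice, 3 in LR mice and 4 in KN1 mice, against 22.9%, 15.5% and 18.5% of all genes. DESeq2 called 1 of the 9 in KR mice and none in LR or KN1 mice. For the differences between mutants, edgeR called none of the 9 (0.00605% of all genes for KR minus LR and for LR minus KN1, 0% for KR minus KN1), and DESeq2 called Alox12e in KR minus KN1. At an unadjusted p under 0.05, KR minus LR had 2 of the 9 (4.15% of all genes), KR minus KN1 4 (7.57%) and LR minus KN1 2 (7.04%). Groups did not overlap for 5 of 9 genes in KR mice (38.4% of all genes), 3 of 9 in LR mice (19.6%) and 4 of 9 in KN1 mice (28.1%). Alox12 and Ptgs1 were below their own controls without overlap in all 3 cohorts, as were 2.25% of all genes.

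**Figure D1:**
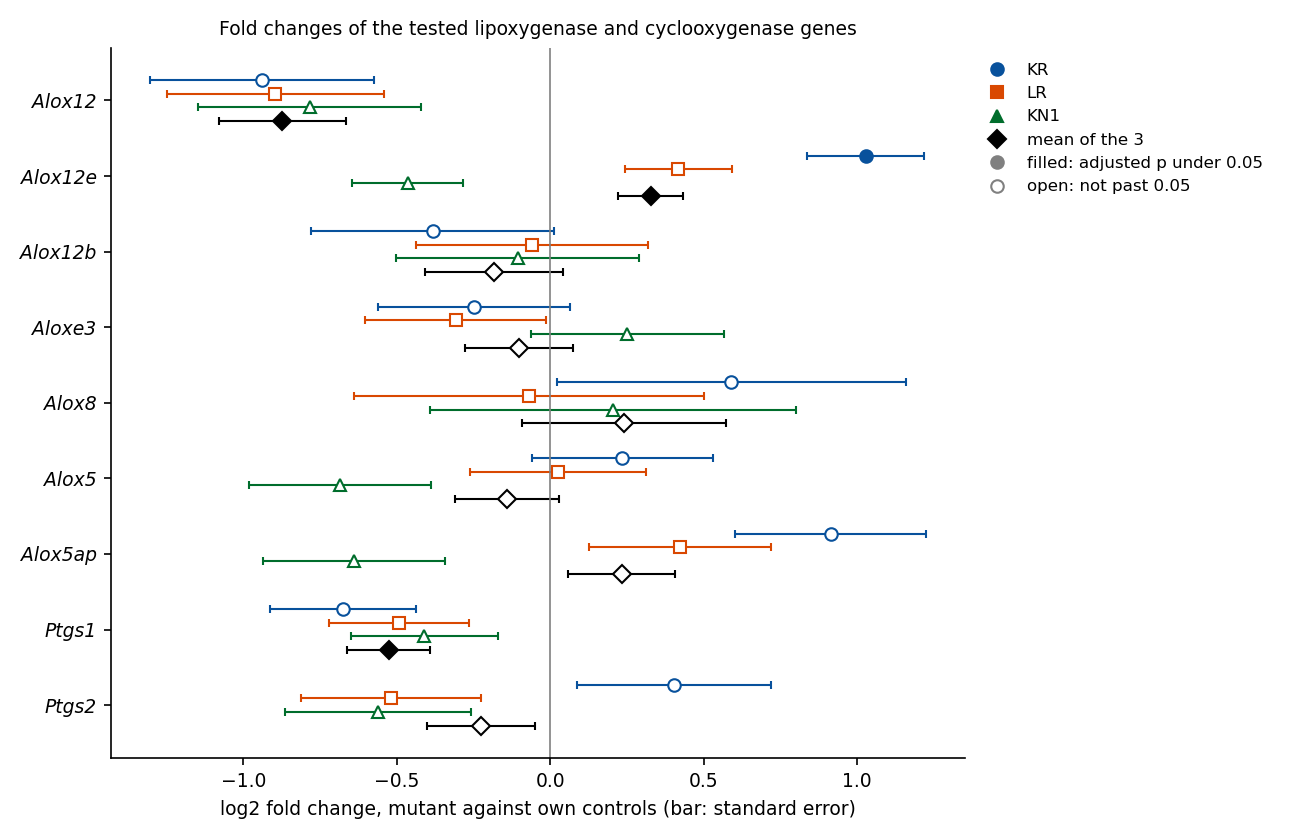
Log2 fold changes of the 9 tested genes in KR, LR and KN1 mice against their own controls and for the mean of the 3, where bars are standard errors and filled symbols passed the threshold. Alox12 and Ptgs1 are below 0 in every comparison, while Alox12e is above 0 in KR and LR mice and below 0 in KN1 mice.

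Alox12, the platelet-type lipoxygenase that is also made by keratinocytes, lies on chromosome 11 at positions 70241457 to 70255353 (GRCm38, minus strand, protein-coding, 14 merged exons). In KR mice it measured 28.6, 13.7, 24.3 and 12.6 CPM, against 42.3 and 33.3 CPM in KR control mice 4 and 6. In LR mice it measured 35.1, 34.4 and 11.4 CPM, against 53.0, 59.2 and 38.9 CPM in their controls. In KN1 mice it measured 32.5, 33.3, 22.4 and 28.0 CPM, against 49.9 and 50.2 CPM. Mutants were below the controls of their own batch in every cohort, and LR 3 and KR 5 were the lowest of all 18 mice.

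The mean of the 3 differences for Alox12 was −0.87 ± 0.21 (log2, SE; 95% interval −1.31 to −0.43), a level of 0.546 times the controls (edgeR, adjusted p = 0.00884). Singly, the differences were −0.94 ± 0.36 in KR mice, −0.89 ± 0.35 in LR mice and −0.78 ± 0.36 in KN1 mice (adjusted p = 0.149, 0.231 and 0.262), none of them called. Differences between the mutants were small beside their errors. KR minus LR was −0.04 ± 0.51, KR minus KN1 −0.16 ± 0.53 and LR minus KN1 −0.11 ± 0.51. Their 95% intervals were wide (−1.13 to 1.04 for KR minus LR), so the effects are not shown to be equal.

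**Figure D2:**
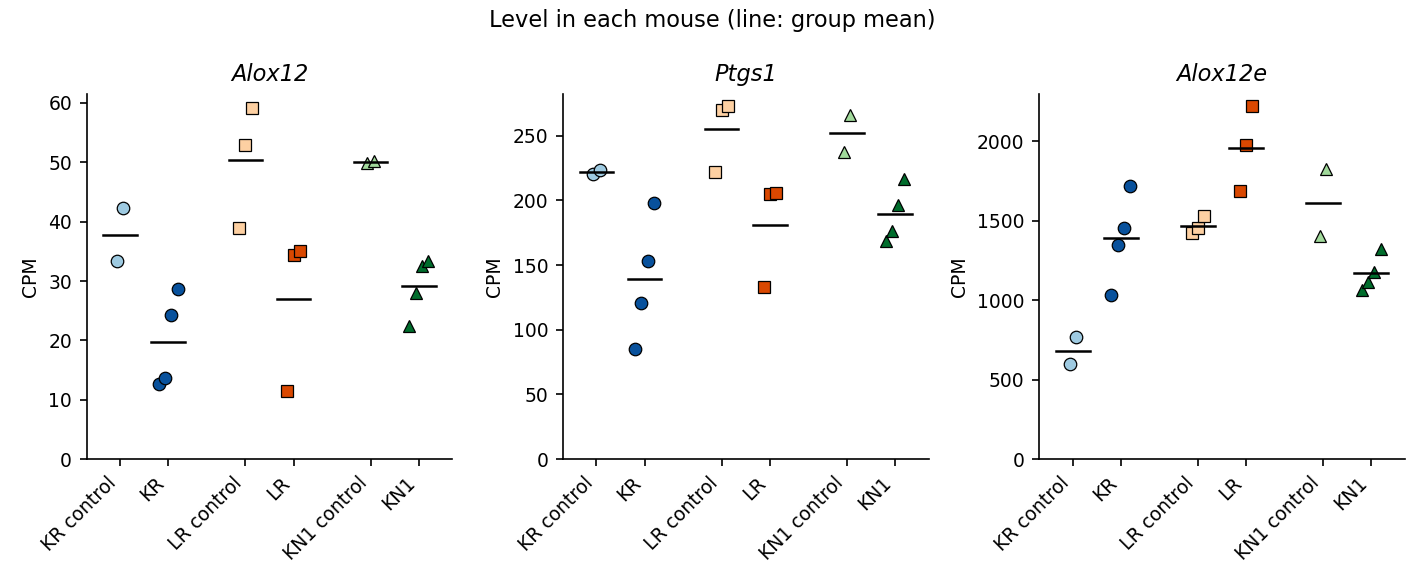
CPM of Alox12, Ptgs1 and Alox12e in each of the 18 mice, by group, with group means drawn as lines. Alox12 and Ptgs1 are lower in mutants than in their own controls in each cohort; the 2 KR controls are the lowest of all mice for Alox12e, at 597 and 766 CPM.

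The 250 bases before the RefSeq start of Alox12 are shown because Rbpj binds a short core, TGGGAA, and 2 copies of that core stand there. The core was searched on both strands of the full 250 bases for each of the 7 genes that have a RefSeq promoter entry. The stretches below also show Ptgs1, the other gene that fell, and Alox12e, the most abundant of the set. Each is given 5′ to 3′ in the direction of transcription, with the core in capitals. The stretch shown for Alox12e is the part of its searched window that lies before the annotated transcript start.
Alox12, chr11:70255371-70255620, minus strand, GRCm38.p6: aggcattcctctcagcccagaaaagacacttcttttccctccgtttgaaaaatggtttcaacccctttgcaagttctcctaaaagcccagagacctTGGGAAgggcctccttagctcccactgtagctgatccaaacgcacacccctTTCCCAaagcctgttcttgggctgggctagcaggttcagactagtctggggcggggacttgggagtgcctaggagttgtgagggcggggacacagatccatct
Ptgs1, chr2:36230176-36230425, plus strand, GRCm38.p6: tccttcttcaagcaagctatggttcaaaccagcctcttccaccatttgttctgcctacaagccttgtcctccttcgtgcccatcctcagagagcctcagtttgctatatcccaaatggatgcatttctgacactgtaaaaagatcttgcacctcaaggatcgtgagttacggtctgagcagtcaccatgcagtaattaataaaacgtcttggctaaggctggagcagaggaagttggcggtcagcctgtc
Alox12e, chr11:70322629-70322780, minus strand, GRCm38.p6: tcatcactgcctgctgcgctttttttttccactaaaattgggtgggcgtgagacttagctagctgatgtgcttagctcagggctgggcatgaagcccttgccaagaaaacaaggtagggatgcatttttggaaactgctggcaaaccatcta
The Alox12 window holds TGGGAA 154 bases before the start, on the coding strand, and its reverse complement 103 bases before it. Neither Ptgs1 nor Alox12e holds the core, nor do Alox12b, Alox8, Alox5 and Ptgs2. Among 32851 RefSeq windows of 250 bases, 21.6% hold TGGGAA at least once on either strand. The share that holds 2 copies, as Alox12 does, was not counted. The AP-1 letters TGANTCA (6.75% of windows) and TATAAA (12.4%) were found in none of the 7. A match describes letters only, and binding was not measured.

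Ptgs1 encodes the constitutive cyclooxygenase and lies on chromosome 2 at positions 36230426 to 36252272 (GRCm38, plus strand, 11 merged exons). In KR mice it measured 198, 120, 153 and 85.4 CPM, against 224 and 221 CPM in KR control mice 4 and 6. In LR mice it measured 205, 206 and 133 CPM, against 270.1, 273 and 222 CPM. In KN1 mice it measured 197, 168, 217 and 177 CPM, against 238 and 266 CPM. All 11 mutants were below every one of the 7 controls, cohorts ignored, as happened for 0.424% of all genes (70 of 16517). The closest pair was KN1 3 at 216.9 CPM and KR control 6 at 220.8 CPM.

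Ptgs1 fell by 0.53 ± 0.14 on the log2 scale averaged over the 3 mutants (95% interval −0.81 to −0.24), to 0.694 times the controls (edgeR, adjusted p = 0.0117). The single differences were −0.68 ± 0.24 in KR mice, −0.49 ± 0.23 in LR mice and −0.41 ± 0.24 in KN1 mice (adjusted p = 0.118, 0.309 and 0.371). KR minus LR was −0.18 ± 0.33, KR minus KN1 −0.27 ± 0.34 and LR minus KN1 −0.08 ± 0.33, none of them called.

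Counts of the Ptgs1 row include a stretch of 148 exon bases that the annotation shares with the gene Gm43621, and no source used here says whether counting used strand. The averaged calls of Alox12 and Ptgs1 ended in 3 settings, with the direction kept. With a covariate for the second-named libraries the differences were −1.15 and −0.63 (adjusted p = 0.132 and 0.2). The fit without the 3 second-named controls left only KR control 4 and KN1 control 1, both joined, as controls of their cohorts. In it the differences were −0.99 and −0.54. Without the 8 mice with high hair matrix markers, of which 6 are mutants and 2 are controls, they were −0.85 and −0.35 (adjusted p = 0.176 and 0.254), a choice made after the values were seen. Both were called when any 1 mouse was left out (adjusted p up to 0.0297 and 0.0384).

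Levels of Alox12 and Ptgs1 went together over mice. After subtracting each group's mean, log2 CPM of the pair correlated at 0.78 over 18 mice (0.90 without subtracting). The 3 genes closest to Alox12 by this measure, of 11702 compared, were Susd2, Commd10 and Scpep1os, each with r = 0.93. Those closest to Ptgs1 were RP23-454A14.10 (0.96), the spinous keratin Krt10 (0.94) and Lrsam1 (0.94). These are descriptions over mice that share their library, depth and tissue piece, with no test.

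Spinous markers also tended to be lower in mutants. The summed CPM of the 8 spinous markers ranged from 20311 to 41537 in KR mice against 44826 to 47220 in KR controls. It was 17756 to 38182 in LR mice against 34893 to 48297, and 40448 to 55590 in KN1 mice against 52230 to 60728. The LR and KN1 ranges overlapped those of their controls. All 8 had negative differences in each mutant, as did 46.6%, 50.5% and 48.2% of all genes in KR, LR and KN1 mice. Of the 8, 1 was called in KR mice (1.6% of all genes) and 0 in LR or KN1 mice (1.12% and 1.97%). For the mean of the 3, 4 of 8 fell, against 11.1% of all genes. None of the 8 was at 0 in any library. Their part in the fall of Alox12 and Ptgs1 was not tested. Platelets also make Alox12 and Ptgs1, and of 8 platelet markers 2 have a row here. Their summed CPM was 4.35 to 8.63 in controls and 6.43 to 19.1 in mutants, and their part in the levels of Alox12 and Ptgs1 was not tested. Both platelet markers with a row, Itga2b and Gp1ba, were found in every library, while the rest of the 8, Pf4 and Ppbp among them, have no row. The 2 had positive differences in each mutant, and 1 of the 2 rose for the mean (10.6% of all genes).

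**Figure D3:**
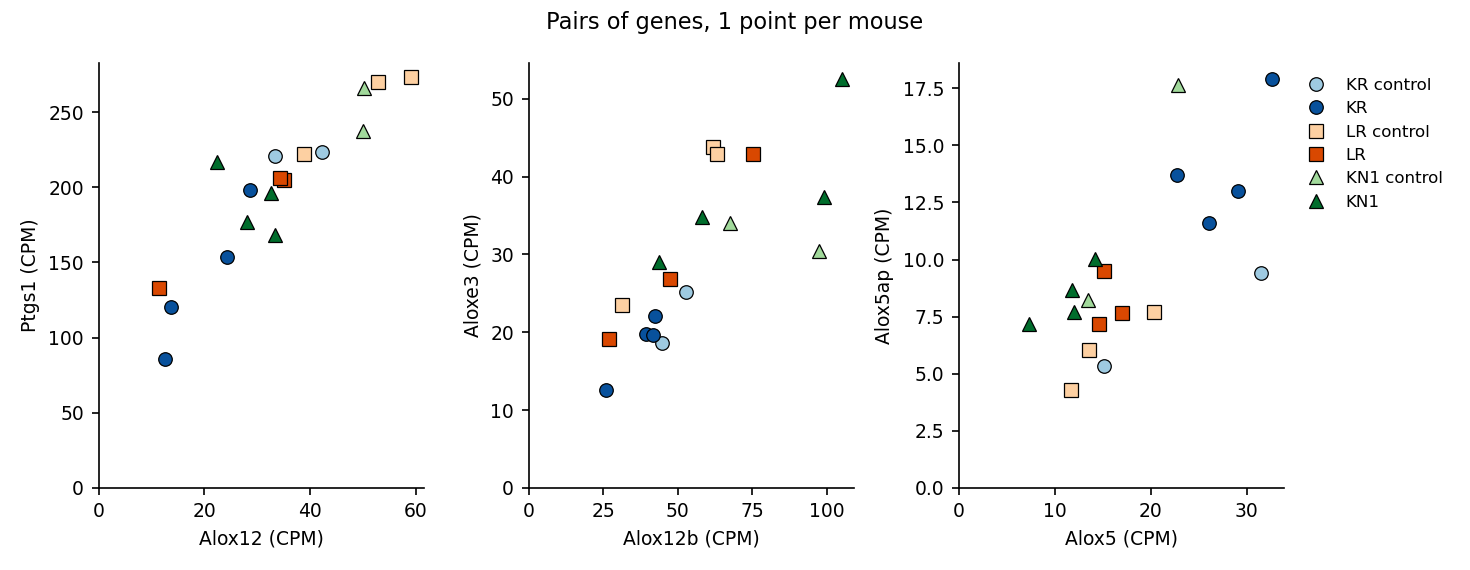
CPM of Alox12 against Ptgs1, Alox12b against Aloxe3 and Alox5 against Alox5ap in the 18 mice, 1 point per mouse and colour by group. In each pair, mice high for one gene tend to be high for the other, with r of 0.78, 0.89 and 0.83 for log2 CPM within groups.

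Alox12e, an epidermal lipoxygenase of the mouse, lies 60.3 kb from Alox12 on chromosome 11 at positions 70315610 to 70322628 (GRCm38, minus strand, 11 merged exons). KR mice measured 1457, 1720, 1030 and 1348 CPM, against 597 and 766 CPM in their controls. LR mice measured 1975, 1687 and 2219 CPM, against 1420, 1452 and 1530 CPM. KN1 mice measured 1117, 1179, 1065 and 1320 CPM, against 1824 and 1404 CPM. KR controls lay far below the other controls (1404 to 1824 CPM), and 2 of the 4 KR mice (1457 and 1720 CPM) lay within that range. Mutants did not overlap their controls in any cohort, upward in KR and LR mice and downward in KN1 mice.

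Alox12e was 2.04-fold higher in KR mice than in their controls (log2 1.03 ± 0.19, edgeR, adjusted p = 0.0211). Against all 7 controls pooled the difference was 0.11 (adjusted p = 0.82). In LR mice it was 0.42 ± 0.17 (adjusted p = 0.249) and in KN1 mice −0.46 ± 0.18 (adjusted p = 0.18). The mean of the 3 was 0.33 ± 0.10 (adjusted p = 0.0336).

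Leaving out KR 3 or KR 5 ended the KR call (edgeR, adjusted p = 0.0699 and 0.056). So did leaving out KR control 4 or KR control 6 (0.86 and 1.19), which leaves a single KR control. The KR call also ended with the covariate (1.08, adjusted p = 0.21) and with the 7 controls pooled. It ended as well without the 3 second-named controls (1.19) and without the hair marker mice (1.25). Over all alternatives the KR call held in 19 of 27. The averaged call ended without KR control 4, LR control 3, KN1 control 7, KR 3, LR 1, LR 3 or KN1 4 (adjusted p from 0.0511 to 0.132). It also ended with the 7 controls pooled (0.20, adjusted p = 0.509), with the covariate (0.36, adjusted p = 0.315), without the second-named controls (0.33, adjusted p = 0.11) and without the hair marker mice (0.39, adjusted p = 0.17), and so held in 15 of 26 alternatives. KR minus KN1 was 1.49 ± 0.26 (95% interval 0.94 to 2.04; edgeR adjusted p = 0.168, where 0% of all genes were called; DESeq2 adjusted p = 0.000225). LR minus KN1 was 0.88 ± 0.25 (adjusted p = 0.348) and KR minus LR 0.61 ± 0.25 (adjusted p = 0.98).

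Its ratio to Alox12, in counts per count within a library, was 42.5 to 126 in KR mice against 14.1 and 23.0 in their controls. For LR mice the ratio was 49.0 to 194 against 24.5 to 39.3, and for KN1 mice 34.3 to 47.5 against 27.9 and 36.5, which overlapped. In KR and LR mice Alox12 lay below and Alox12e above all controls of the batch. The ratio therefore had to separate those groups and adds no further evidence. Alox12e and Alox12 correlated at −0.44 within groups. Its 3 closest genes were Parp8, Ksr1 and Plekha7 (0.85, 0.85 and 0.84).

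Alox12b, Aloxe3 and Alox8 lie within 71.9 kb of chromosome 11. Alox12b (69156989 to 69169792) and Aloxe3 (69125896 to 69149115) are on the plus strand and Alox8 (69183932 to 69197843) on the minus strand. Alox12b measured 39.4, 42.3, 41.9 and 25.9 CPM in KR mice against 52.7 and 44.6 CPM. It measured 75.3, 47.3 and 27.0 CPM in LR mice against 61.7, 63.3 and 31.4 CPM, and 43.6, 58.2, 105 and 99.1 CPM in KN1 mice against 67.4 and 97.5 CPM. KR mice were below their controls, while LR and KN1 mice overlapped theirs, and the mean of the 3 was −0.18 ± 0.23 (95% interval −0.66 to 0.30; adjusted p = 0.588).

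Aloxe3 measured 19.7, 22.1, 19.6 and 12.5 CPM in KR mice against 25.1 and 18.6 CPM. It measured 42.9, 26.9 and 19.1 CPM in LR mice against 43.9, 42.9 and 23.5 CPM, and 29.1, 34.8, 52.6 and 37.3 CPM in KN1 mice against 34.0 and 30.5 CPM. All 3 cohorts overlapped, and the mean of the 3 was −0.10 ± 0.18 (95% interval −0.48 to 0.27; adjusted p = 0.708). Neither barrier lipoxygenase passed in any comparison. Their correlation within groups was 0.89, and the genes closest to them were Cldn4, Tgm1 and Pcdh1 (each 0.96) for Alox12b and Nccrp1, Asprv1 and Pdlim2 (0.95, 0.94 and 0.93) for Aloxe3. Tgm1 is the transglutaminase that crosslinks the cornified envelope and Asprv1 a granular layer protease. Summed granular markers were 6387 to 12219 CPM in KR mice against 14781 to 15082, 6047 to 18642 in LR mice against 8673 to 18829, and 23573 to 26246 in KN1 mice against 23123 to 28846. Their part in the level of Alox12b was not tested.

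Alox8, the mouse counterpart of human ALOX15B, was low, at 9 to 77 counts per library. It measured 1.42, 4.16, 5.12 and 7.60 CPM in KR mice against 1.74 and 4.50 CPM, so the groups overlapped (log2 0.59 ± 0.57). In LR mice it was 1.25, 3.10 and 1.72 CPM against 2.36, 1.24 and 2.77, and in KN1 mice 1.36, 3.82, 1.25 and 2.87 CPM against 2.19 and 1.84. The 95% interval in KR mice was −0.61 to 1.78, and a change within it was not resolved with KR mice spread from 1.42 to 7.60 CPM. Alox15 had 58 counts in all 18 mice, from 0 to 15 per library, with 15 of them in KN1 2, and 4 mice had none. No comparison was made for it, and a count of 0 allows up to 3 counts in a library.

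Alox5 (chromosome 6, positions 116410077 to 116461178) and Alox5ap (chromosome 5, positions 149264767 to 149288153) are the leukotriene pair. Alox5ap measured 17.9, 11.6, 13.0 and 13.7 CPM in KR mice against 9.42 and 5.32 CPM. It measured 7.67, 7.16 and 9.48 CPM in LR mice against 6.03, 4.29 and 7.69 CPM, and 10.0, 8.68, 7.20 and 7.70 CPM in KN1 mice against 17.6 and 8.25 CPM. KR mice were above their controls with no overlap, but the difference was not called (0.91 ± 0.31, adjusted p = 0.112), nor was that in KN1 mice (−0.64 ± 0.30, adjusted p = 0.259). KR minus KN1 was 1.55 ± 0.43 (95% interval 0.65 to 2.45, adjusted p = 0.435).

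Alox5 measured 32.6, 26.0, 29.1 and 22.8 CPM in KR mice against 31.5 and 15.1 CPM. It measured 17.0, 14.6 and 15.2 CPM in LR mice against 13.6, 11.7 and 20.4 CPM, and 14.2, 11.8, 7.34 and 12.1 CPM in KN1 mice against 22.9 and 13.5 CPM. All 3 cohorts overlapped, and none was called (KN1 −0.69 ± 0.30, adjusted p = 0.225). The pair correlated at 0.83 within groups. The genes closest to Alox5ap were Mpp2, Coro1a and Csf1r (0.91, 0.91 and 0.89), of which Csf1r is a receptor of macrophages and Langerhans cells; those closest to Alox5 were Ncoa5, Gpr141 and Prex1. Summed Langerhans markers were 1710 to 1971 CPM in KR mice against 803 to 1312, 1043 to 1645 in LR mice against 714 to 1082, and 1234 to 1505 in KN1 mice against 1687 to 2328. Macrophage markers were 83.6 to 114 CPM in KR mice against 42.2 to 73.1. They overlapped in LR mice (48.5 to 67.1 against 44.5 to 69.6) and in KN1 mice (53.5 to 68.1 against 67.8 and 87.0). Csf1r, at a median of 47.1 CPM, is in both the macrophage and the Langerhans list, so the 2 sums are not separate. The part of these markers in the levels of Alox5 and Alox5ap was not tested, and 189 exon bases of Alox5ap are shared with Gm19719.

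Ptgs2, the inducible cyclooxygenase and an immediate early gene (chromosome 1, positions 150100031 to 150108227, plus strand), measured 8.79, 9.61, 10.8 and 4.93 CPM in KR mice against 7.82 and 4.96 CPM. It measured 7.57, 10.95 and 6.46 CPM in LR mice against 10.05, 15.7 and 10.2 CPM. In KN1 mice it measured 10.6, 6.48, 8.58 and 9.08 CPM against 14.2 and 11.4 CPM, with no overlap but no call (−0.56 ± 0.30, adjusted p = 0.334). The mean of the 3 was −0.23 ± 0.17 (adjusted p = 0.367). Summed immediate early genes were 4579 to 7333 CPM in KR mice against 3845 and 3954 in their controls, with no overlap. They were 7391 to 16504 CPM in LR mice against 6932 to 13664, and 5200 to 10743 in KN1 mice against 8064 and 9818, both overlapping. Their part in the level of Ptgs2 was not tested. Ptgs1 exceeded Ptgs2 in every mouse, by 12.5 to 44.6 counts per count. Isg20, RP23-133J9.12 and Ifitm6 were closest to Ptgs2 (0.86, 0.82 and 0.81).

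**Figure D4:**
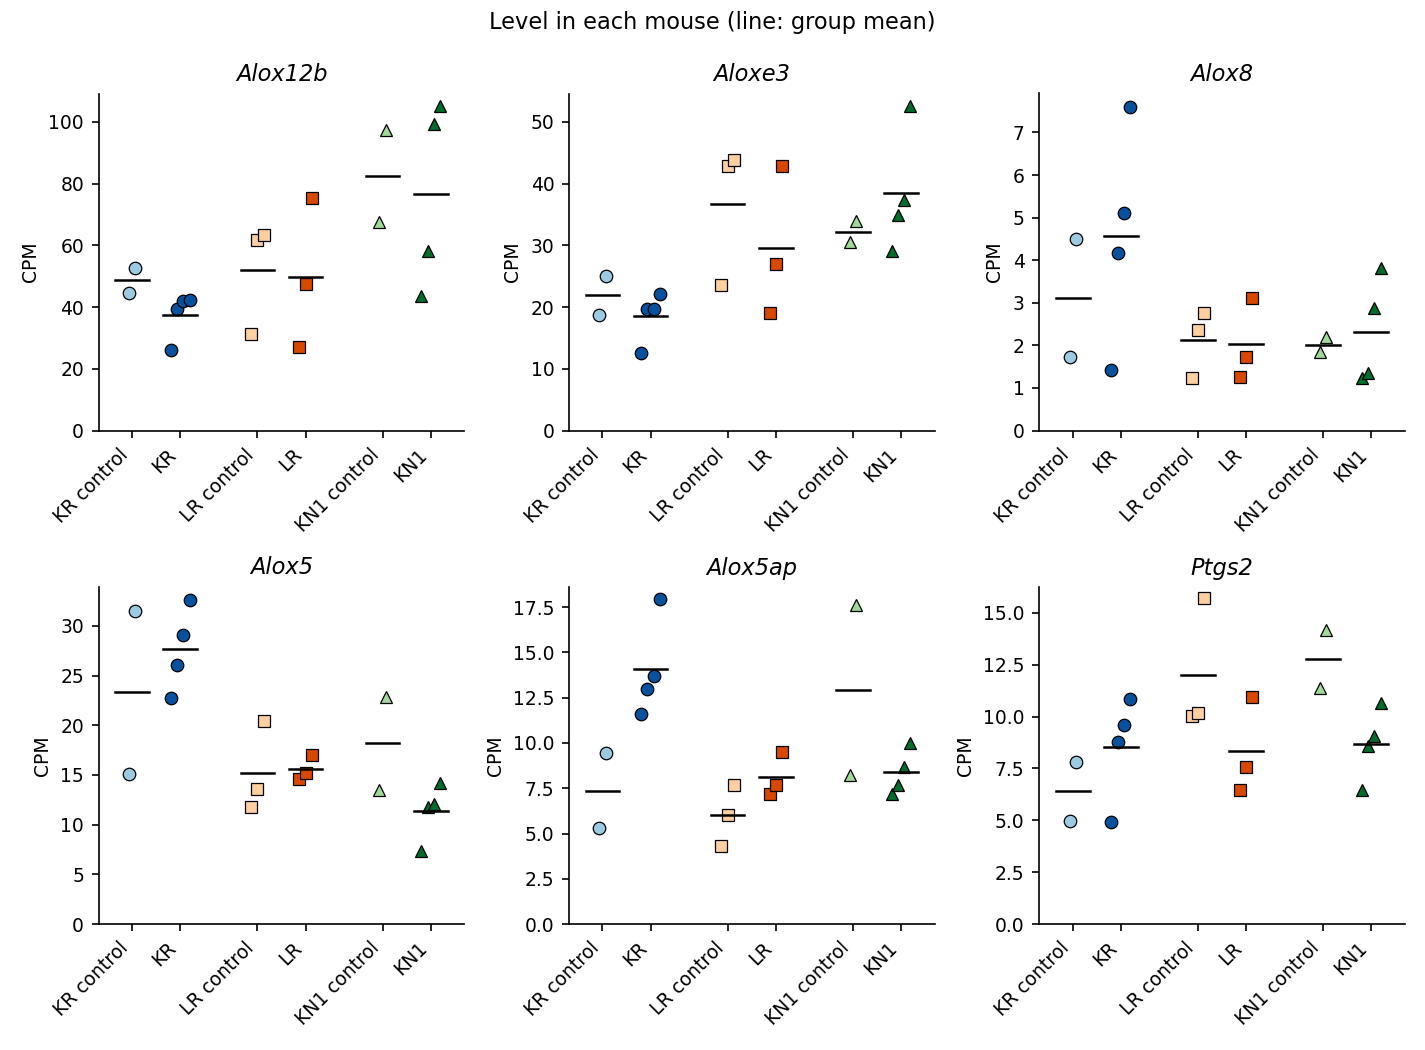
CPM in each of the 18 mice by group for Alox12b, Aloxe3, Alox8, Alox5, Alox5ap and Ptgs2, with group means. Without overlap, KR mice are above their 2 controls for Alox5ap and below them for Alox12b, and KN1 mice are below theirs for Ptgs2. In every other comparison shown, mutants and controls overlap.

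Genes around these enzymes were counted in lists chosen for their role. Genes given for the mean of the 3 were picked after their values were seen. Of 26 acylceramide and barrier lipid genes, 2 fell in KR mice, none was called in LR mice and 2 fell in KN1 mice, where 1.6%, 1.12% and 1.97% of all genes were called. For the mean of the 3, 12 fell and 2 rose (against 11.1% and 10.6% of all genes), and the risers were Degs2 (0.71 ± 0.19, adjusted p = 0.0129) and Ppard (0.27 ± 0.09, adjusted p = 0.0358). With the covariate or without the hair marker mice, none of the 26 was called for the mean, without the second-named controls 4 fell, and with the controls pooled 9 fell and 1 rose. Median log2 differences of the list were −0.32, −0.43 and −0.29 in KR, LR and KN1 mice, against 0.04, −0.00 and 0.02 over all genes. In KR mice Abhd5, the activator of the lipase that feeds acylceramide synthesis, fell from 113.7 ± 0.37 to 72.8 ± 6.58 CPM (SD; log2 −0.64 ± 0.15, edgeR adjusted p = 0.0399). Acer1, an alkaline ceramidase, fell from 260.4 to 147 CPM in KN1 mice (adjusted p = 0.0456), but it was not called with the controls pooled (log2 −0.38, adjusted p = 0.203). With 1 mouse left out, the KR call of Abhd5 ended without KR control 4 or 6, KR 1, 3 or 5, or KN1 2, 3 or 4 (adjusted p from 0.0512 to 0.367). The call of Acer1 ended in 13 of 18 such cases, namely without either KN1 control, any KN1 mouse, LR control 3, either KR control, KR 1, 3 or 4, or LR 1 (from 0.0533 to 0.266). Over all alternatives, the Abhd5 call held in 16 of 27 and the Acer1 call in 10 of 27.

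Of 12 tested phospholipases A2, which release arachidonic acid, none was called in any single mutant. At an unadjusted p under 0.05, 4, 5 and 1 passed in KR, LR and KN1 mice, against 22.9%, 15.5% and 18.5% of all genes. The smallest adjusted p of the 12 was 0.116, for Pla2g12a in KR mice (log2 0.55 ± 0.19). For the mean of the 3, Pla2g12a rose (0.37 ± 0.11, adjusted p = 0.0216), while Pla2g4a (−0.40 ± 0.11), Pla2g2f (−0.47 ± 0.16) and Pla2g16 (−0.70 ± 0.18) fell (adjusted p = 0.0138, 0.0383 and 0.0135). Among 10 prostanoid synthases none was called in a single mutant (Akr1b8 in LR mice, 1.10 ± 0.29, adjusted p = 0.0714), and for the mean Akr1b8 (0.76 ± 0.17) and Ptges2 (0.36 ± 0.10) rose and Ptges3 (−0.46 ± 0.13) fell. Among 5 genes of prostanoid transport and breakdown none was called in a single mutant, where Hpgd, the enzyme that inactivates prostaglandins, was −0.85 ± 0.24 in LR mice (adjusted p = 0.0917). For the mean, Hpgd (−0.72 ± 0.14, adjusted p = 0.00259), Ptgr1 (−0.62 ± 0.16) and Ptgr2 (−0.37 ± 0.11) fell and Slco2a1, the prostaglandin transporter, rose (0.37 ± 0.13, adjusted p = 0.0473). Of 5 tested prostanoid receptors, Ptgdr, the prostaglandin D receptor, rose in LR mice from 6.34 to 16.0 CPM (1.32 ± 0.30, adjusted p = 0.0389), a call that ended without LR control 2 or 3, LR 1 or 3, KR 3 or KN1 4 (adjusted p from 0.0523 to 0.219). Over all alternatives the Ptgdr call held in 19 of 28. Ptger1, a prostaglandin E receptor, rose for the mean (0.39 ± 0.13, adjusted p = 0.0375). Of 7 leukotriene enzymes, Mgst3 fell in KN1 mice from 80.3 to 50.5 CPM (−0.67 ± 0.16, adjusted p = 0.0393), but the difference was 0.12 with the controls pooled. That call ended without KN1 control 7 (−0.49, adjusted p = 0.382), and without KN1 1, 2 or 4, KR 3 or 5, or LR 1 or 2 (adjusted p from 0.0501 to 0.0989). Over all alternatives the Mgst3 call held in 14 of 27. None of the 7 leukotriene enzymes was called for the mean. Of 4 tested receptors of lipoxygenase products none was called in a single mutant (Cmklr1 in KR mice, −1.67 ± 0.58, adjusted p = 0.117, at 0.309 against 1.02 CPM). For the mean, the leukotriene B4 receptor Ltb4r1 rose (0.44 ± 0.12, adjusted p = 0.0161) and Cysltr1 fell (−0.83 ± 0.25, adjusted p = 0.0255). Of 14 immediate early genes none was called in a single mutant (Ier3 in KR mice, 1.17 ± 0.33, adjusted p = 0.0724), and Ier3 rose for the mean (0.76 ± 0.18, adjusted p = 0.00925). Of all genes, 21.7% were called for the mean, and 1.6%, 1.12% and 1.97% in KR, LR and KN1 mice singly. In these lists, the barrier list aside, 5 genes were called for the mean with the controls pooled, 1 with the covariate (a prostanoid synthase), 3 without the second-named controls (2 prostanoid synthases and 1 immediate early gene) and 0 without the hair marker mice.

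**Figure D5:**
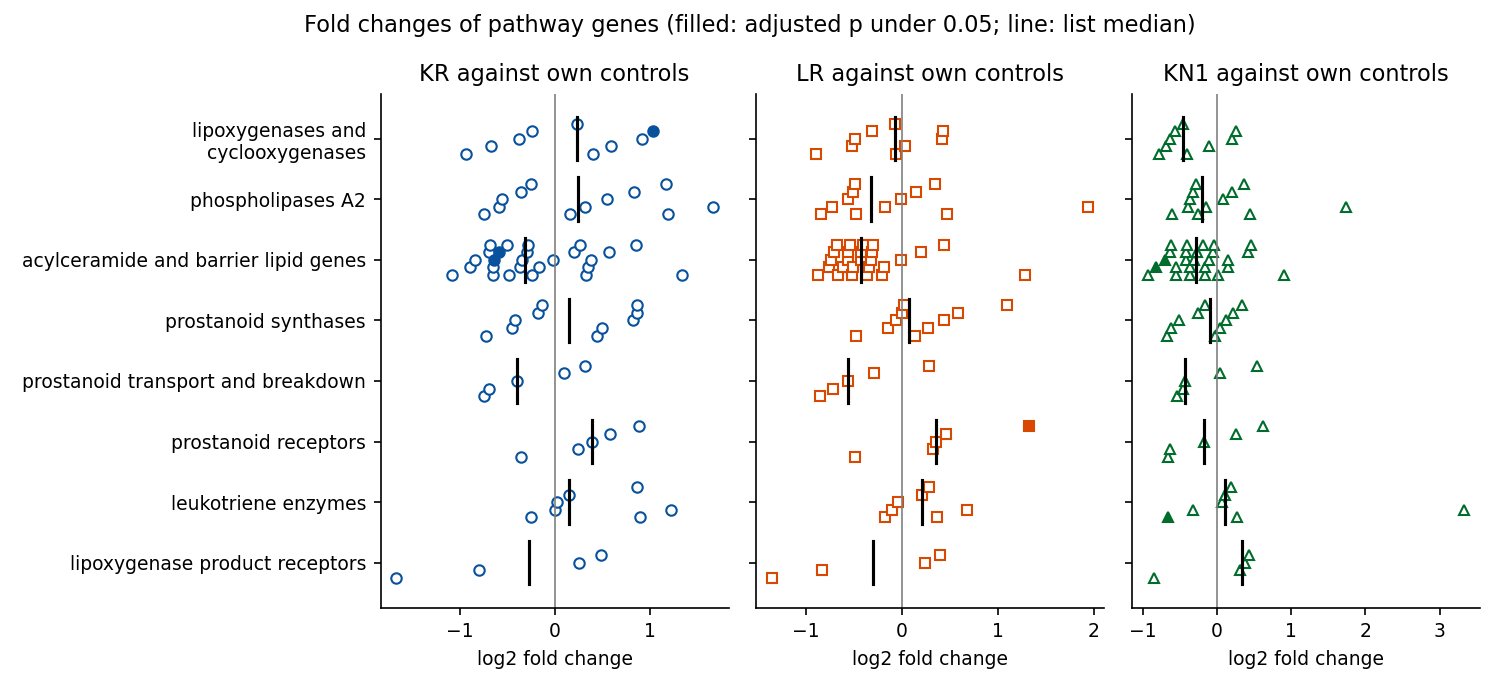
Log2 fold change of each tested gene (1 symbol per gene, filled where called) in KR, LR and KN1 mice against their own controls, by list, with the list median as a line. The acylceramide and barrier medians lie at −0.32, −0.43 and −0.29.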

How the data were processed

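The authors deposited 1 table of raw counts of reads per gene for 18 mice, 21011 rows with a total of at least 18 counts each. Per the submitters' processing notes, the build was mm10 and the tools were STAR, HTSeq and DESeq2; their versions and the strand setting are not given in the sources used here. All columns were matched to mice by name. Counts were tested with edgeR 4.0.16 in R 4.3.3 (TMM factors, filterByExpr, robust quasi-likelihood F test, 6 group means over all 18 mice), with Benjamini-Hochberg adjustment over 16517 genes and a threshold of 0.05. The common biological coefficient of variation was 0.225, and groups of 2 took their spread from all mice. The approach was tested on simulated data. Alternatives were RLE factors, other count filters, DESeq2 1.42.0, each cohort alone, pooled controls, the second-named libraries as a covariate or left out, a replicate block, and leaving out each mouse. Replicates differed by more than sampling noise, with chi-square per degree of freedom of at least 6.41. The 10 genes and all lists were chosen with earlier results of these data known. In lists, every called gene is named (at most 4 a list), otherwise the gene with the smallest adjusted p. One called gene of the barrier list is counted but not reported here. The closest genes were ranked by Pearson correlation of log2 CPM (prior count 2) over mice after group means were subtracted, among genes with a mean of at least 5 CPM. Coordinates and exon lengths are from GENCODE M21 (GRCm38), in which 15418 rows matched by symbol. Promoters are from RefSeq (GRCm38.p6), which held 7 of the 10 genes, and the bases shown stop before the annotated transcript start.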

Additional observations from a re-analysis of the deposited data

Results flagged for a closer look

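Against controls of the same batch, Alox12e differed in opposite directions in the cohorts. Every KR mouse and every LR mouse was above all controls of its own batch, and every KN1 mouse was below its own controls. Such lack of overlap was seen for 38.4%, 19.6% and 28.1% of all genes in KR, LR and KN1 mice. Singly, only the KR difference was called, and against all 7 controls pooled it was 0.11 (edgeR, adjusted p = 0.82). The 2 KR controls, at 597 and 766 CPM, lay below the other controls (1404 to 1824 CPM). The difference of effects was 1.49 between KR and KN1 mice and 0.88 between LR and KN1 mice on the log2 scale, and neither passed the edgeR test of the difference (adjusted p = 0.168 and 0.348), while DESeq2 gave adjusted p = 0.000225 and 0.0889. A check for single mice far from the rest of their group, made for the groups of 4, found 0 in 18 tests.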

How the results depend on the processing

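Some groups held 2 mice, and Alox8 and Alox15 had few counts. RLE factors and a mean of at least 1 CPM as the filter moved no count of calls by over 1.5 times. Averaged over the 3 mutants, Alox12 and Ptgs1 were each called in 23 of 26 alternatives and Alox12e in 15 of 26.

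Of the 9 genes, the count called in KR mice (1) was 2 with the 7 controls pooled (Alox12 and Ptgs1) and 0 with the covariate, without the second-named controls, or without the 8 mice with high hair matrix markers. That last choice was made after seeing the data, leaves 10 mice, and assumes that single mice of a group vary like the others. Leaving out the second-named controls assumes the same of KR control 4 and KN1 control 1, then the only controls of their cohorts. The count for the mean of the 3 (3) was 0 in the latter 3 settings, and the count for KR minus KN1 (0) was 1 with DESeq2. In all genes, KR calls (264) were 672 with each cohort alone, 809 with pooled controls, 12 with the covariate, 32 without the second-named controls, 1086 with DESeq2 and 0 without the hair marker mice. LR calls (185) were 66 with the cohort alone, 1052 with pooled controls, 551 with DESeq2 and 40 without the hair marker mice. KN1 calls (325) were 98, 1867, 19, 41, 803 and 0 in the order given for KR. Calls for the mean (3576) were 1828 with pooled controls, 53 with the covariate, 1125 without the second-named controls and 46 without the hair marker mice. KR minus LR (1) gave 8 without the second-named controls, 4 with DESeq2 and 0 without the hair marker mice. KR minus KN1 (0) gave 39 with DESeq2. LR minus KN1 (1) gave 3 with no filter, 21 without the second-named controls, 70 with DESeq2 and 0 without the hair marker mice. The cause was not tested.

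Log2 differences that were not called changed sign as follows. With pooled controls, Ptgs2 in KR mice was −0.31, Alox5 −0.25 and Alox5ap −0.065 in LR mice, and Alox12b 0.36, Alox8 −0.020 and the called Mgst3 0.12 in KN1 mice. With the covariate, Alox8 in LR mice was 0.24 and Aloxe3 in KN1 mice −0.35. Without the second-named controls, Alox5 in KR mice was −0.22, Alox8 in LR mice 0.18, Alox12b in KN1 mice 0.18 and Alox5ap in KR minus LR −0.10. Without the hair marker mice, Alox8 was −0.32 in KR mice, −0.65 in KN1 mice and −0.47 for the mean, and in LR mice Alox12b was 0.12 and Alox5 −0.00049.

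Leaving out 1 mouse at a time, the genes of the set called ranged from 0 to 1 in KR mice and from 2 to 3 for the mean. All genes called ranged from 5 (without KR control 6) to 1353 (without LR control 5) in KR mice, from 60 (without LR 3) to 246 (without LR 2) in LR mice, and from 2 (without KN1 control 7) to 640 (without LR control 5) in KN1 mice. They ranged from 2163 to 3997 for the mean, 1 to 8 for KR minus LR, 0 to 3 for KR minus KN1 and 1 to 13 for LR minus KN1. Ranges that crossed 0 were −0.22 to 0.86 for Alox5 in KR mice. In LR mice they were −0.48 to 0.24 for Alox12b, −0.53 to 0.18 for Alox8 and −0.13 to 0.30 for Alox5. In KN1 mice they were −0.35 to 0.18 for Alox12b, −0.14 to 0.40 for Alox8 and −1.07 to 0.022 for Alox5ap, and for the mean −0.30 to 0.067 for Alox5.

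A replicate block was possible in LR mice only, where replicate numbers 2 and 3 recur in the controls. Same-numbered mice correlated at 0.03 and −0.13 over 11710 genes after group means were subtracted. Differently numbered mice were not set beside them, so whether the numbers pair the mice is not known. With the replicate block 163 genes and 0 of the 9 were called in LR mice.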
